A study of Mus musculus with 4 samples.

Results

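The genes described here are 37 markers of the structural cells of the liver other than hepatocytes, 15 of endothelial cells, 13 of stellate cells and fibroblasts and 9 of bile duct cells, out of 21631 protein-coding genes. They were taken as a fixed list of names, and all 37 were found in the RefSeq gene table of GRCm38.p6. Open chromatin had been profiled by ATAC-seq, in which a transposase cuts accessible DNA, in frozen liver of female FVB mice aged 11 weeks on standard chow. The 4 libraries were 2 of PA mice, which the labels give as hypomorphic Pcca-/- (A138T), and 2 of wild-type (WT) mice. Pcca encodes a subunit of propionyl-CoA carboxylase. The labels do not say which cells carry the hypomorphic form or what drives it. Each library has a list of peak positions with no height or score, so a gene is either called or not called in it. The lists held 25683 and 29765 peaks in PA 1 and PA 2, and 26280 and 25941 in WT 1 and WT 2. Read depth is unknown. The replicates are biological per the design text of the series, and differences are set against the spread between the 2 libraries of a genotype.

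Sinusoidal endothelial cells line the blood channels of the liver and clear particles from blood through scavenger receptors such as Stab1 and Stab2. Stellate cells lie between endothelium and hepatocytes, store vitamin A as retinyl esters and turn into collagen-producing cells in fibrosis. Bile duct cells, or cholangiocytes, are epithelial cells of the ducts and are known for keratins such as Krt19 and Krt7. Each of these is a minority beside hepatocytes, from which most of the chromatin in a piece of liver comes. In such bulk tissue, fewer cells of a type and less open chromatin per cell cannot be told apart.

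Most markers had no peak at their ends. A peak lay within 1 kb of either end of the gene in all 4 libraries at 4 of 37 markers (10.8%), against 41.3% of all protein-coding genes. These were Kdr and Tie1 among endothelial markers, Reln among stellate markers and Krt8 among bile duct markers. Such a peak was present in at least 1 library at 9 of 37 (24.3%), against 51.7% of all genes. The further 5 were Lyve1, Fcgr2b, Bmp2, Lrat and Sox9. The median distance from the nearer gene end to a peak, taken as the median of the 4 libraries for each gene, was 15788 bp over the markers and 2327.5 bp over all genes. Just inside the limit of 1 kb stood a Kdr region at 746 bp and a Krt8 region at 843 bp. Just outside it were regions at 1438 bp from Oit3, 1758 bp from Clec4g and 1842 bp from Lyve1.

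**Figure D1:**
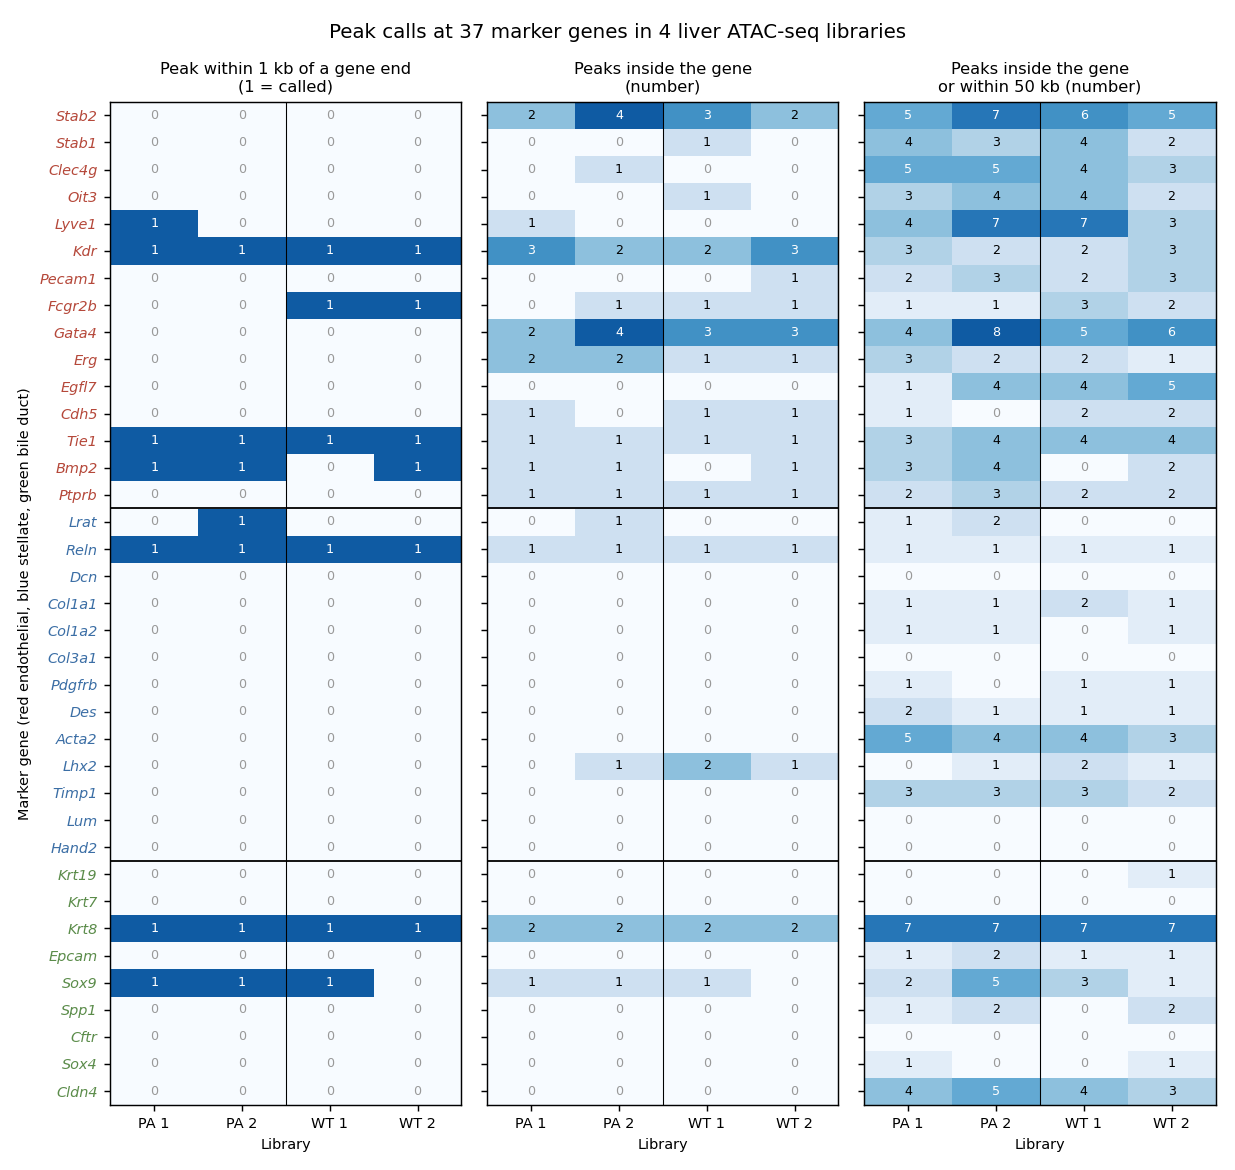
Peak calls at the 37 markers (rows, grouped by cell type) in PA 1, PA 2, WT 1 and WT 2 (columns): a call within 1 kb of a gene end as 1 or 0, the number of peaks inside the gene, and the number inside or within 50 kb. Kdr, Tie1, Reln and Krt8 are called near an end in every library, and most stellate and bile duct rows are 0 inside the gene.

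The promoter windows of these 4 genes, and of Fcgr2b, whose calls differed by genotype, are shown so that the calls can be set against the annotated starts. Each is 300 bases from RefSeq (GRCm38.p6), 250 before the annotated start and 50 from it on, read 5′ to 3′ on the gene's strand, which is the minus strand for all 5. The start is base 251. Capitals mark matches to 6 short motifs searched on both strands, which are CCGGAAG for ETS factors, AGATAA for the GATA family, AACAAAG for the SOX family, GGGCGG for the GC box, TATAAA for the TATA box and TGANTCA for AP-1. Where a gene has several annotated starts, the outermost was used. The windows are Kdr at chr5:75978406-75978705, Tie1 at chr4:118489800-118490099, Reln at chr5:22344656-22344955, Krt8 at chr15:102004293-102004592 and Fcgr2b at chr1:170976022-170976321.
Kdr: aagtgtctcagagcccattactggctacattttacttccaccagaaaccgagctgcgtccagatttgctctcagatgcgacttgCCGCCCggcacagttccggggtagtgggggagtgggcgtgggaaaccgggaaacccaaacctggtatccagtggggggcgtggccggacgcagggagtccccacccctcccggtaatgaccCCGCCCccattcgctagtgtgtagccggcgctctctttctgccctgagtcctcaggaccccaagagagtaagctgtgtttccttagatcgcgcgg
Tie1: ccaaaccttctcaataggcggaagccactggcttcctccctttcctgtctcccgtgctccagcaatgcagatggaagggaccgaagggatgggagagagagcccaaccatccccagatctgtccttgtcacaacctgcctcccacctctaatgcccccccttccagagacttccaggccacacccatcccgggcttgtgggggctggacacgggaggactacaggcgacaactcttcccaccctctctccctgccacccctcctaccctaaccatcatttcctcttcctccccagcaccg
Reln: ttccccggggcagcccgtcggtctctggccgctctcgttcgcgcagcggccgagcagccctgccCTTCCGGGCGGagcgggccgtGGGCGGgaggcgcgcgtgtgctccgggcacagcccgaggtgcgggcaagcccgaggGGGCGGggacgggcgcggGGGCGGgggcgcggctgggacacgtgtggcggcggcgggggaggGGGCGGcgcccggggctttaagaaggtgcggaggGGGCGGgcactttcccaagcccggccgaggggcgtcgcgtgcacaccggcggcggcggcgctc
Krt8: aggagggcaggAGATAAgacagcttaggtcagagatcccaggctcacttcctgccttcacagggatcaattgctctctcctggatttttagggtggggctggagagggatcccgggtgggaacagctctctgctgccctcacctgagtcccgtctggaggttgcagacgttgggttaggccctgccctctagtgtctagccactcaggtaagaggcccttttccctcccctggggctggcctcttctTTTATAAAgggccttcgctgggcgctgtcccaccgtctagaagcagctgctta
Fcgr2b: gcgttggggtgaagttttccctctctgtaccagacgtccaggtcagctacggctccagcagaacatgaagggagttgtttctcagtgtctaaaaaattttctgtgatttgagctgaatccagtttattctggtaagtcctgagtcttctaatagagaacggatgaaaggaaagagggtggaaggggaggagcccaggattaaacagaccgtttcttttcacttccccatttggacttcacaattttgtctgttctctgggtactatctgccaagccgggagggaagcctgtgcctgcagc

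The windows were unlike in composition. CpG observed over expected, which is near 1 where CpG has not been depleted, was 1.01 in the Reln window and 0.69 in the Kdr window. It was 0.35 for Fcgr2b, 0.29 for Tie1 and 0.24 for Krt8. The Reln window held 6 GC boxes and 1 ETS match overlapping the first of them, and the Kdr window held 2 GC boxes. The Krt8 window held 1 GATA match and a TATA match at bases 250 to 255 that overlaps one on the other strand at 248 to 253. No match to the 6 motifs lay in the Tie1 or Fcgr2b window. Among the outermost promoters of 17274 protein-coding genes, 46.9% held a GC box, 12.1% the ETS letters, 9.99% the GATA letters, 13.4% the TATA letters, 4.93% the SOX letters and 7.09% the AP-1 letters. Among the 24 markers with a promoter in the table, 13 (54.2%) held a GC box, 2 (8.33%) ETS, 2 (8.33%) GATA, 4 (16.7%) TATA, 1 (4.17%) SOX and 1 (4.17%) AP-1. The only SOX and AP-1 matches among markers were both at Cldn4, a claudin of epithelial tight junctions. A match is a run of letters and not a binding site.

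At Tie1, a receptor tyrosine kinase of endothelial cells (chromosome 4, 118471191 to 118489849), the peak lay over the start itself. The region, chr4:118489701-118490181, covered all 300 bases of the printed window in each of the 4 libraries. Its place was 39.3% and 52.9% of the way down in PA 1 and PA 2, and 65.9% and 50.4% in WT 1 and WT 2. The lines of the lists are not in genome order and no source used here explains their order, so place in a list is only a description. Tie1 was the sole endothelial marker whose annotated start was covered in every library, among the 8 endothelial markers with a start in the promoter table. With Reln and Krt8, a peak lay within 1 kb of a start in every library at 3 of the 24 markers in that table, against 44.2% of all genes in it.

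Kdr, the main VEGF receptor of endothelial cells (chromosome 5, 75932827 to 75979072), was called near an end in all 4 libraries at the opposite end from its promoter. That region, chr5:75933573-75934081, lay 44374 bp downstream of the annotated start. It stood 38.7% and 60.9% down the PA 1 and PA 2 lists, and 76.8% and 57.4% down the WT 1 and WT 2 lists. A further region inside the gene, chr5:75962097-75962626, 15829 bp downstream of the start, was also called in all 4 libraries (58.4% and 71.3% down in PA 1 and PA 2, 76.8% and 68.2% in WT 1 and WT 2). The start was covered in WT 2 alone, by a peak that took in all 300 bases of the window, and in PA 1, PA 2 and WT 1 no base of the window lay under a peak. One more region, 12617 bp inside the gene, was called in PA 1 alone. Kdr thus counts as called near an end through its downstream end.

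At Fcgr2b, an inhibitory Fc receptor that sinusoidal endothelial cells also make (chromosome 1, 170960558 to 170976071), the start was called in WT 1 and WT 2 and in no PA library. It was the only marker of the 37 with calls split this way, and none was split in favour of PA. Over all genes, 0.476% had a call near an end in both WT libraries alone and 0.661% in both PA libraries alone. No base of the printed window lay under a peak in PA 1 or PA 2, against 128 bases in WT 1 and 110 in WT 2. The WT region, chr1:170975732-170976149, stood 64.0% and 56.4% down the WT 1 and WT 2 lists. With only the upper 50% of each list kept, the split was therefore absent. PA 2 had a peak inside the gene 2766 bp from the start, 62.9% down its list and 2427 bp from the WT region. In PA 1 the nearest peak lay 22167 bp from the start.

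**Figure D2:**
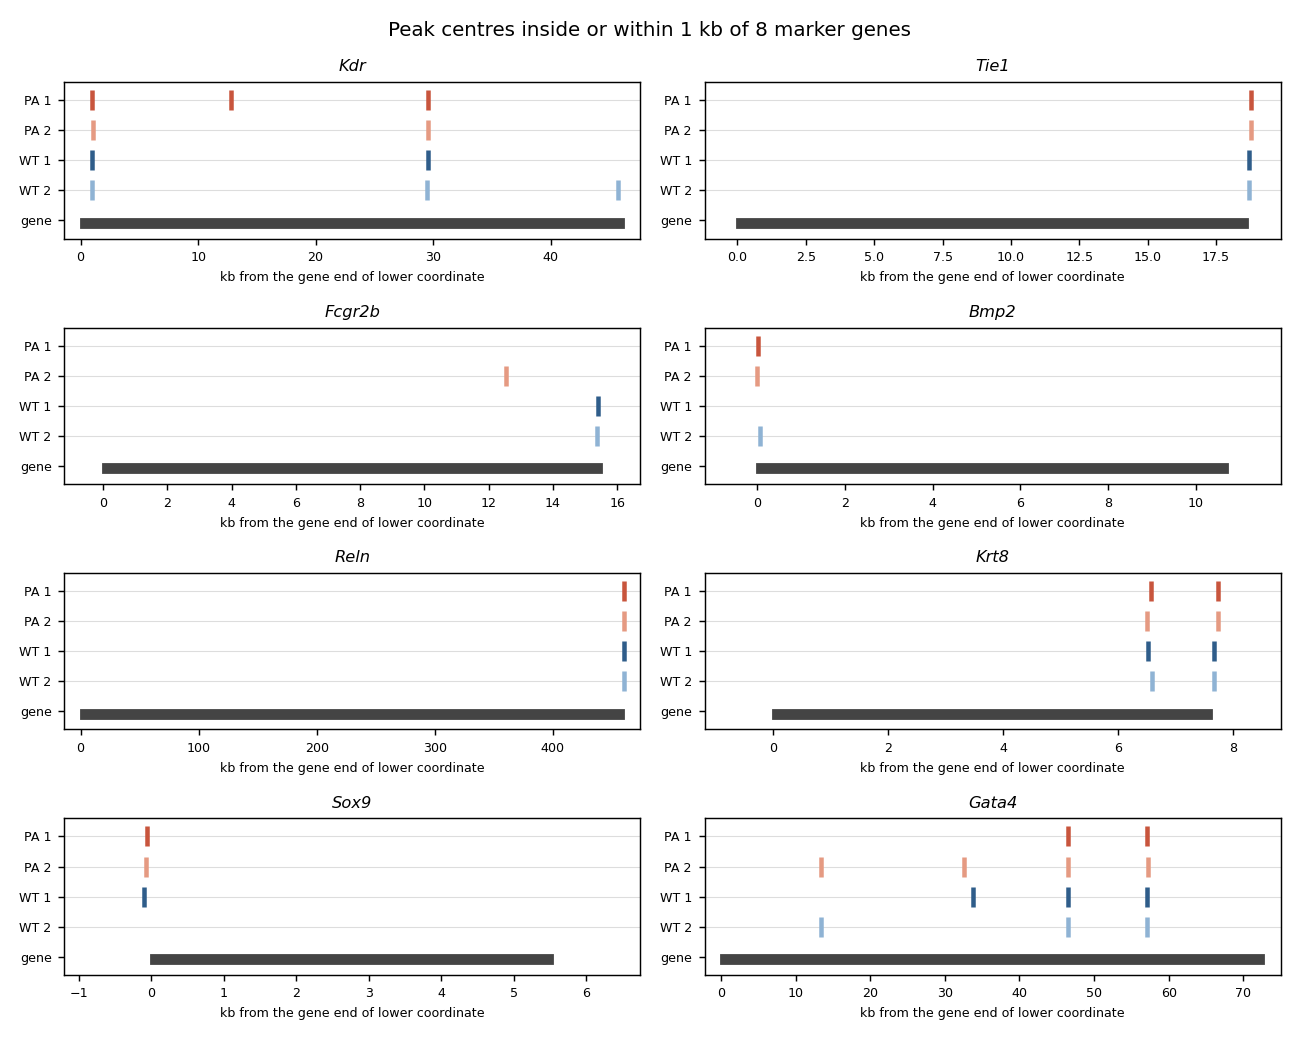
Peak centres (ticks) in PA 1, PA 2, WT 1 and WT 2 along 8 markers, in kb from the gene end of lower coordinate; the dark bar is the gene. The Tie1, Reln and Krt8 peaks at the right-hand end sit at the annotated start in every library, Kdr has a start peak in WT 2 alone, and the Fcgr2b start is called in WT 1 and WT 2.

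A peak inside the gene in every library, ends included, was present at 6 endothelial markers, which were Kdr, Tie1, Stab2, Gata4, Erg and Ptprb, and at 8 of all 37, against 47.5% of all genes. Bmp2, a secreted BMP ligand of liver endothelium (chromosome 2, 133552159 to 133562896), had a peak over its end of lower coordinate in PA 1, PA 2 and WT 2 (19.9%, 31.8% and 27.9% down the lists). WT 1 had no Bmp2 peak there, and its nearest one was 53118 bp away. Lyve1, a hyaluronan receptor, was called at its upper end in PA 1 alone, 83.8% down the list. Gata4, a transcription factor of sinusoidal endothelium (chromosome 14, 63198914 to 63271712), had no call near an end and 2 regions inside it called in all 4 libraries. One of these, chr14:63245168-63245592, stood highest, by the mean of the 4 libraries, of the marker regions inside or near a gene that were called in every library, at 26.5% and 19.0% in PA 1 and PA 2 and 36.8% and 21.3% in WT 1 and WT 2. The other, beginning at 63255793, stood at 63.1% and 57.4% in PA 1 and PA 2 and 64.1% and 60.6% in WT 1 and WT 2.

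Stab2, a hyaluronan scavenger receptor (chromosome 10, 86841194 to 87008038), held 7 regions over its 167 kb. Only chr10:86923604-86924066 was called in all 4 libraries (36.9% and 32.2% in PA 1 and PA 2, 74.4% and 48.3% in WT 1 and WT 2). The start of Stab2 had no peak nearer than 14977 bp in any library. Of the remaining 6 regions inside it, 5 were called in 1 library each and 1 in PA 2 and WT 1. Erg, an ETS transcription factor of endothelial identity (chromosome 16, 95359169 to 95586600), has 3 annotated starts. Its outermost start lay 50012 and 50034 bp from the nearest peak in PA 1 and PA 2, and 50023 and 50024 bp in WT 1 and WT 2. An inner start was covered in PA 1 alone, by a peak beginning at 95459288. Cdh5, the cadherin of endothelial junctions, had 1 region inside the gene, called in PA 1, WT 1 and WT 2 (40.3%, 66.1% and 53.0% down). Ptprb, a receptor phosphatase of vascular endothelium, had 1 peak inside it in every library, but these made 3 regions, of which none was in more than 2 libraries. Pecam1, an adhesion molecule of endothelial junctions, Stab1, Oit3 and Clec4g, a lectin of sinusoidal endothelium, each had 1 region inside the gene in 1 library. Egfl7, a secreted endothelial protein, had none.

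The 13 stellate markers had 4 regions inside or within 1 kb of them. Reln, which encodes the secreted protein reelin (chromosome 5, 21884454 to 22344705), was the sole stellate marker with a call near an end in all 4 libraries. The region chr5:22344644-22345103 lay over the start and covered 252 and 277 of the 300 window bases in PA 1 and PA 2, and 300 and 260 in WT 1 and WT 2. It stood 66.8% and 61.7% down the lists in PA 1 and PA 2, and 34.2% and 57.0% in WT 1 and WT 2. No other peak lay inside the 460 kb of the gene or within 50 kb of it. Lrat, the enzyme that esterifies retinol in stellate cells (chromosome 3, 82892582 to 82903974), was called over its start in PA 2 alone, 99.6% of the way down that list. Lhx2, a transcription factor of stellate cells, had no call near its outer ends. A merged region over its second annotated start, chr2:38350872-38351322, was called in PA 2, WT 1 and WT 2 (78.7%, 78.6% and 75.6% down). Only the PA 2 peak, which ended at 38351322, covered that start. The WT 1 and WT 2 peaks ended just short of it, at 38351271 and 38351274.

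The matrix genes of the stellate group had no peak inside them in any library. These were Col1a1, Col1a2 and Col3a1, which encode fibrillar collagen chains, and Dcn and Lum, which encode small proteoglycans of the matrix. The same held for Pdgfrb, the PDGF receptor of stellate cells, the muscle-type cytoskeletal genes Des and Acta2, the protease inhibitor gene Timp1 and the transcription factor gene Hand2. Dcn, Col3a1, Lum and Hand2 had no peak within 50 kb either. At Col3a1 the nearest peak to either end lay 152532 bp away in PA 1 and 445544 bp in PA 2, and 445539 and 445544 bp in WT 1 and WT 2. The nearest peak to Col1a1 lay between 25872 and 25891 bp in the 4 libraries.

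Krt8 stood apart from the other bile duct markers. It encodes a simple-epithelium keratin that hepatocytes make too, so it does not mark ducts alone. At Krt8 (chromosome 15, 101996711 to 102004342) 7 peaks lay inside or within 50 kb in each library, and all 7 regions were called in all 4. The region over the start, chr15:102004179-102004651, covered 300 and 300 window bases in PA 1 and PA 2, and 297 and 286 in WT 1 and WT 2. It stood 40.1% and 21.1% down the lists in PA 1 and PA 2, and 39.3% and 39.5% in WT 1 and WT 2. A companion region began at 102003017, 843 bp into the gene (30.9% and 26.7% in PA 1 and PA 2, 23.1% and 23.9% in WT 1 and WT 2). Of the 5 flanking regions, 3 had an end of Krt18, which encodes the partner of keratin 8, as the nearest gene end, and 2 an end of Krt78.

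Sox9, a transcription factor of bile duct cells (chromosome 11, 112782210 to 112787757), had a peak over its end of lower coordinate in PA 1, PA 2 and WT 1 (29.7%, 25.9% and 42.9% down). In WT 2 the nearest peak lay 42132 bp away. No peak lay inside Krt19, Krt7, Epcam (an epithelial adhesion molecule), Spp1 (osteopontin), Cftr (the chloride channel of ducts), Sox4 or Cldn4 in any library. Krt7 and Cftr had none within 50 kb, and Krt19 had 1 in WT 2 alone, 99.0% of the way down the list. In all, 6 of the 37 markers had no peak inside or within 50 kb in any library (16.2%, against 16.3% of all genes), 4 of them stellate and 2 bile duct. All 15 endothelial markers had at least 1 such peak in some library, and 13 of them had one in every library. Over the 37 markers 22 did (59.5%, against 76.3% of all genes).

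**Figure D3:**
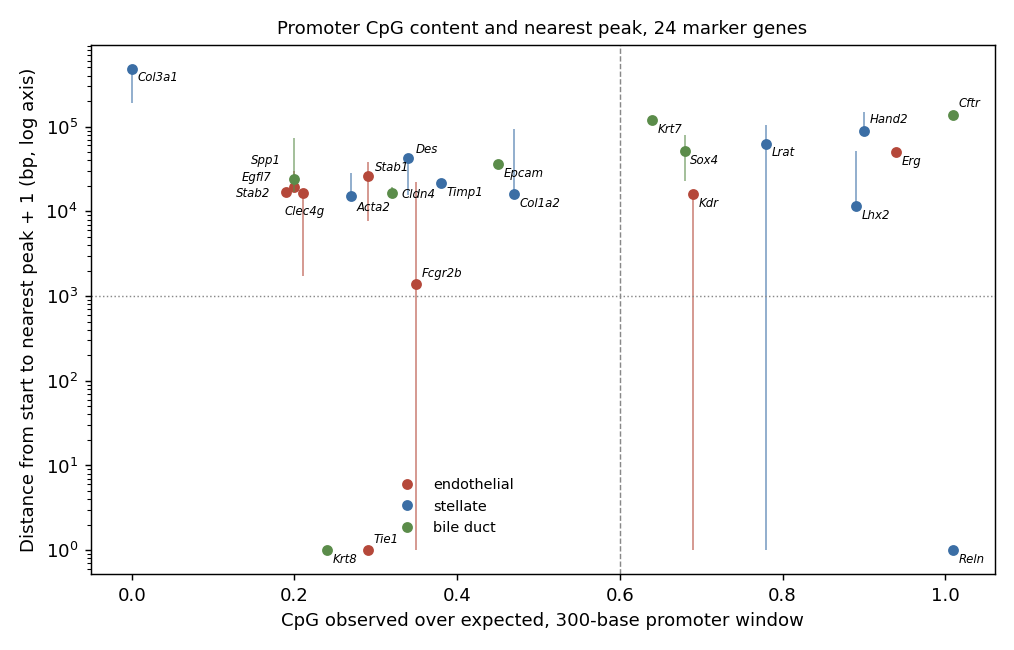
CpG observed over expected of the promoter window (horizontal) against the distance from the outermost annotated start to the nearest peak plus 1 bp (vertical, log axis) for 24 markers; points are medians and bars run from the lowest to the highest of the 4 libraries. The dashed line is 0.6 and the dotted line 1 kb. To the right of 0.6 only Reln sits at the foot of the plot, and the bars of Kdr and Lrat reach it in 1 library each.

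CpG-rich promoters, which are open in many tissues, were mostly without a call at these genes. Of the 24 markers with a promoter in the table, 9 had CpG observed over expected of at least 0.6, namely Kdr, Erg, Lrat, Reln, Lhx2, Hand2, Krt7, Cftr and Sox4. A peak lay within 1 kb of the outermost start in all 4 libraries at 1 of these 9 (11.1%), Reln, and in at least 1 library at 3, with Kdr and Lrat added. Over all genes in the table, 6017 of 8460 such promoters (71.1%) had one in all 4 libraries. Below 0.6 the counts were 2 of 15 markers (13.3%), Tie1 and Krt8, against 1398 of 8814 genes (15.9%). The median was 0.37 over the 24 markers and 0.59 over the 17274 genes. Cftr had 1.01, Erg 0.94 and Hand2 0.90 with no peak nearer than 50012 bp of that start in any library. The table has no promoter for 13 markers, so these shares leave out Col1a1, Sox9, Gata4 and others.

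Further genes of the same cell types gave shares between 16.7% and 31.2%. Calls near an end in every library were present at 10 of 32 further endothelial genes (31.2%), the first in the list being Tek, the receptor for angiopoietins, Sox7, Maf, Klf2, a flow-induced transcription factor, Notch1 and Wnt2. They were present at 5 of 30 further stellate and fibroblast genes (16.7%), which were Myh11, Bambi, Nt5e, Vim and Steap4. They were present at 7 of 24 further bile duct genes (29.2%), among them Slc4a2, a bicarbonate exchanger, Elf3, Pkhd1, Notch2, Jag1 and Anxa4. Each of these shares lay below that of all genes. Of 20 hepatocyte genes, listed for comparison, 11 (55.0%, against 41.3% of all genes) were called, among them Apob and Cps1. This list too was chosen with earlier results of these data known, so it is no check of the tissue. Alb was called near an end in 1 library and Apoa1 in none, so a missing call does not mark a silent gene.

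**Figure D4:**
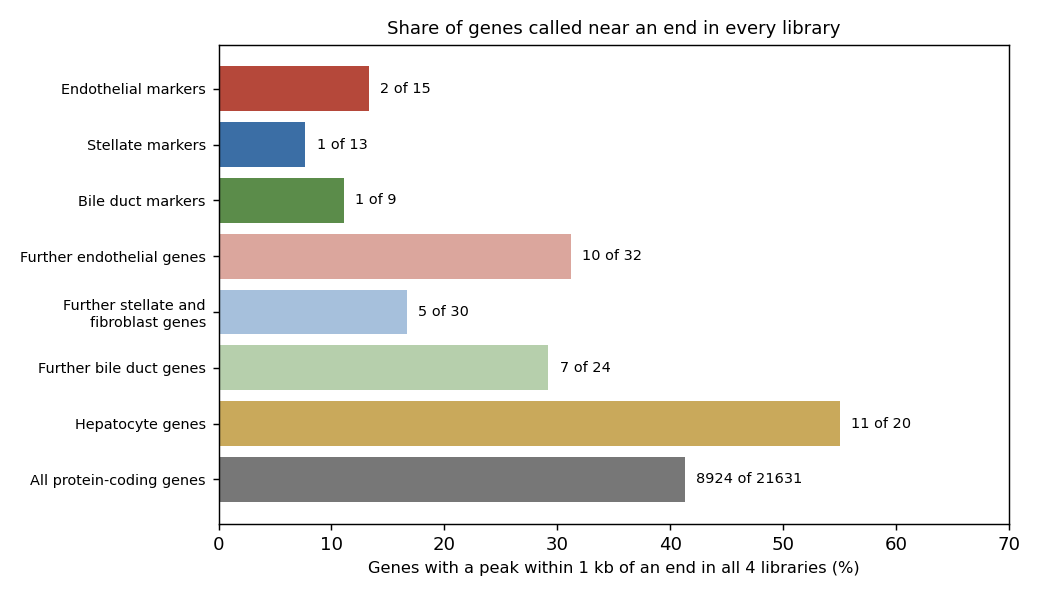
Share of genes with a peak within 1 kb of either end in all 4 libraries (horizontal, percent) for the 3 marker groups, 3 lists of further genes of the same cell types, hepatocyte genes and all protein-coding genes, with counts beside the bars. The marker bars lie between 7.69% and 13.3%, and that of all genes at 41.3%.

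The genotypes had nearly the same number of calls at the markers. A call near an end was present at 7 markers in PA 1 and 7 in PA 2, against 6 in WT 1 and 6 in WT 2. Over all genes the shares were 46.3% in PA 1 and 47.0% in PA 2, against 46.2% in WT 1 and 46.4% in WT 2. The markers behind the counts were not the same from library to library. Lyve1 and Lrat entered in 1 PA library each, and Sox9 and Bmp2 dropped out in 1 WT library each. Fcgr2b counted in WT 1 and WT 2 and in no PA library. The difference in means was 1 (exact permutation test of the 4 libraries, two-sided, p = 0.333, the smallest p that 6 labellings can give). Counted at annotated starts, over the 24 markers with one, which leaves out Lyve1, Bmp2 and Sox9, the difference was -1 (p = 0.667 by the same exact test). Peaks inside or within 50 kb of markers numbered 75 and 92 in PA 1 and PA 2, and 80 and 72 in WT 1 and WT 2. The means were 83.5 ± 12.0 in PA and 76 ± 5.66 in WT (SD, n = 2 each; exact permutation test, two-sided, p = 0.667). These peaks made up 0.292% and 0.309% of the PA 1 and PA 2 lists, and 0.304% and 0.278% of the WT 1 and WT 2 lists. Without PA 2, which has the longest list, the difference was -1. Inside the genes themselves there were 18 and 23 peaks in PA 1 and PA 2, and 21 and 19 in WT 1 and WT 2.

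Most regions at the markers were called in a single library. After merging peaks that overlapped or touched, 40 regions lay inside or within 1 kb of a marker. Of these, 9 (22.5%) were called in all 4 libraries, against 51.4% of all regions inside or within 1 kb of a protein-coding gene. A single library accounted for 21 (52.5%), against 23.1%. The 33 regions of endothelial markers held 19 of those 21. The 9 shared regions stood 52.1% of the way down the lists at the median of their 4-library means, with a range of 25.9% to 68.7%. The same median over all genic regions called in all 4 libraries was 31.6%.

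**Figure D5:**
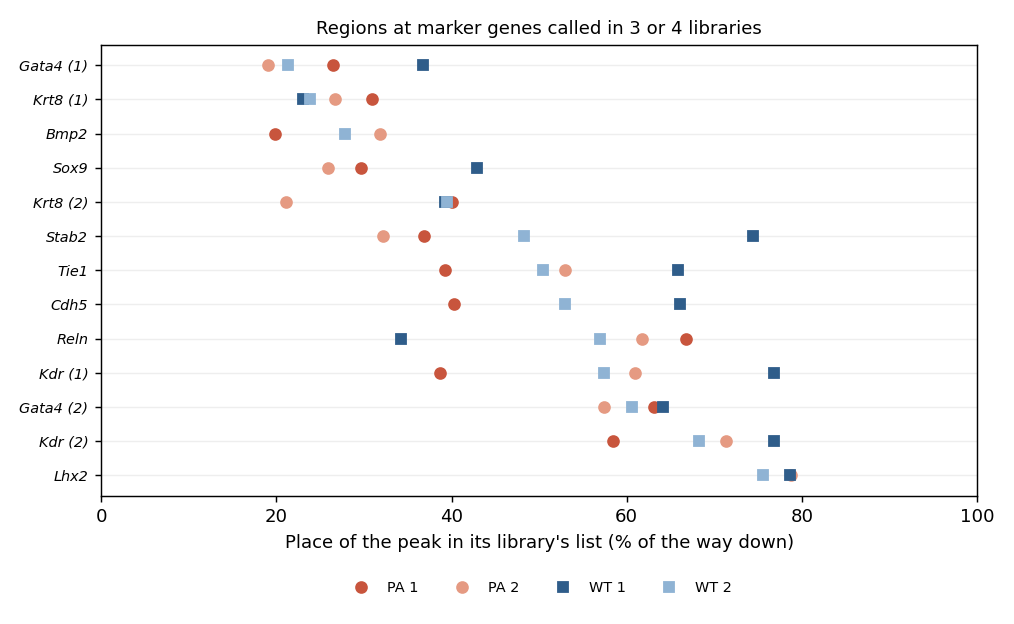
Place of the peak in its library's list (horizontal, percent of the way down) for the 13 regions inside or within 1 kb of a marker that were called in 3 or 4 libraries; circles are PA and squares WT libraries. Numbers in brackets tell apart regions of the same gene in order of position. The first Gata4 region stands nearest the top by the mean of 4 libraries, the second Gata4 region lies between 57.4% and 64.1%, and the WT 1 square lies farthest right in each endothelial row that has one.

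In WT 1 the endothelial marker regions stood lower in the list than in the other libraries. Of the 6 endothelial marker regions called in all 4 libraries, WT 1 was farthest down in 6, against 39.8% of all such genic regions. The 6 regions came from 4 genes, with 2 each in Kdr and Gata4 and 1 each in Tie1 and Stab2. The second Gata4 region was close to a tie, at 64.1% in WT 1 and 63.1% in PA 1. The median place of the 6 was 39.0% and 55.1% in PA 1 and PA 2, and 70.1% and 53.9% in WT 1 and WT 2. Among 20 such regions of the further endothelial genes WT 1 was farthest down in 6 (30.0%), so that list did not have the same order. For Reln WT 1 stood nearest the top. This pattern was noticed in the data and has no test.

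Most regions restricted to a genotype lay in the flanks of the markers, as did most regions of any kind counted there. PA-only is used here for regions found in PA 1 and PA 2 but in no WT library, and WT-only for the reverse. Inside or within 50 kb of the markers lay 135 regions, 95 of them in the flanks. PA-only regions numbered 9 (6.67%, against 3.38% of all regions) and WT-only regions 5 (3.70%, against 1.98%). Of the 135, 42 were called in all 4 libraries (31.1%, against 45.3% of all regions) and 50 in a single one, where 26.8% of all regions were in 1 library. The restricted regions lay at 9 markers (PA-only) and 5 markers (WT-only) of 37. Over all genes, 9.73% had one of the PA-only kind inside or within 50 kb, and 6.58% one of the WT-only kind. Of each kind, 1 was inside or near an end of a marker. The WT-only one was the Fcgr2b start. The PA-only one was inside Erg (chr16:95372915-95373338, 70.2% and 84.1% down the PA 1 and PA 2 lists), 30070 bp from the nearest WT peak.

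The flanking restricted regions mostly had another gene's end as the nearest, as did flanking regions in general. Of the 8 flanking PA-only regions, 5 were of this kind, and of the 4 flanking WT-only regions 3 were. The marker's own end was the nearest for the remaining 3 and 1, against 27 of all 95 flanking regions. The PA-only region beside Clec4g was 299 bp from an end of Cd209a, that beside Gata4 86 bp from an end of Neil2, and that beside Lrat overlapped an end of Rbm46. Those beside Oit3 and Timp1 were 18610 bp from an end of Mcu and 31158 bp from an end of Syn1. The WT-only region 11474 bp from Egfl7 (chr2:26604156-26604566, 18.9% and 11.9% down the WT 1 and WT 2 lists) overlapped an end of Agpat2, and that beside Cldn4 an end of Mettl27. The WT-only region beside Gata4 was 16461 bp from an end of Fdft1. Those with the marker as nearest gene were a PA-only region 18457 bp from Bmp2, one 15876 bp from Col1a2 and one 18993 bp from Cldn4, and a WT-only region 24242 bp from Cdh5. The Col1a2 region lay 115 bp from a WT 2 peak. All 9 PA-only regions stood in the lower part of the lists, from 65.3% to 98.6% of the way down. The 5 WT-only regions ranged from 11.9% to 87.7%. The one beside Gata4 stood 39.3% and 24.3% down the WT 1 and WT 2 lists. Whether low places are usual for PA-only regions of all genes was not tested.

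Shared regions in the flanks likewise mostly had another gene's end as the nearest, which does not show which gene a region acts on. Of 42 regions within 50 kb called in all 4 libraries, 33 lay in the flanks, and for 30 of these 33 the nearest gene end was that of another gene. The highest of them, 42351 bp from Des, overlapped an end of Dnpep and stood 0.21% and 0.0941% down the PA 1 and PA 2 lists, and 0.396% and 0.193% down the WT 1 and WT 2 lists. The others with the marker as nearest gene were 2 regions upstream of Stab2, at 16832 and 24685 bp from the gene, and 1 at 13054 bp from Pecam1.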

How the data were processed

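The authors deposited 1 list of peak positions (chromosome, start, end) per library, 2 of PA and 2 of WT livers, with no score or count. Group and replicate number came from each sample's title. The submitters' processing notes name GRCm38 (mm10) as build and list bedtools 2.31.0, HOMER 4.10, SAMtools 1.17, Bowtie2 2.5.1, cutadapt 3.5 and R 4.1.2. How peaks were called and reads filtered or shifted is not stated there. Almost every peak spans 400 bp. A list records that a window passed a threshold, so a deeper or cleaner library can pass at more places.

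Peaks were set against the RefSeq gene table of GRCm38.p6 (start and end, no strand) with Python 3.11.15 and pandas 2.3.3. A gene was called when at least 1 bp of a peak lay within 1 kb of either end. Peaks that overlapped or touched were merged into 38853 regions. Strand and starts came from the RefSeq promoter table of the same build, which holds 24 of the 37 genes. CpG observed over expected is the CG count times window length over the product of the C and G counts. The scripts were tested on simulated data. Numbers of calls were compared by exact permutation of the 4 libraries, which cannot pass 0.05. Genes and lists were chosen with earlier results of these data known. Named in full are genes called near an end in every library, genes whose calls split by genotype, genes with restricted regions, and those with no peak within 50 kb. Of the other lists, up to 6 called genes are named in list order. The rest are given by range and count or, where named, were chosen after their values were seen. Alternatives were other distances, annotated starts, shorter lists, a stricter overlap, each library left out, replicate numbers as pairs and, added after seeing the data, other CpG thresholds.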

Additional observations from a re-analysis of the deposited data

How the results depend on the processing

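The 4 markers called near an end in all 4 libraries were 3 at 500 bp, 4 at 2 kb, 3 at annotated starts (of 24 markers), 4 with lists of equal length, 1 in the upper 50% of each list, and from 4 to 5 with a library left out. PA minus WT in called markers was 1. It was 0.5 at 500 bp and with lists of equal length, 1.5 at 2 kb and in the upper 50% of each list, -1 at annotated starts, which drop 13 markers, and 1 with any library left out. PA minus WT in peaks within 50 kb was 7.5. It was 1.5 within 10 kb, 0.5 inside genes, 5 with lists of equal length and 4.5 in the upper 50%, with values from -1 (without PA 2) to 16 (without PA 1) with a library left out. PA-only and WT-only regions, 9 and 5, were 2 and 1 within 10 kb, 1 and 1 inside genes, 5 and 5 with lists of equal length, 0 and 2 in the upper 50% of each list, and 9 and 5 with an overlap of at least 50%. With a library left out, which loosens the condition by construction, PA-only regions ranged from 12 to 26 and WT-only regions from 8 to 20. Among CpG-rich promoters the share of markers was 11.1% at a threshold of 0.5 and 16.7% at 0.75, against 68.3% and 76.0% of all genes. Replicate numbers are shared between genotypes, but nothing in the labels pairs the libraries, and the differences between replicates 1 and 2 over regions were uncorrelated between genotypes (r = -0.007 across 38853 regions, which are not independent replicates). With the replicate block the differences were again 1 and 7.5 (exact sign flips of the pairs, p = 0.5 and p = 1, where 0.5 is the smallest possible). Depth is unknown, so its bearing on missing calls was not tested.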
